A study of Mus musculus with 30 samples.

Results

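Complement and coagulation are the 2 protease cascades of the blood plasma. The hepatocyte makes and secretes most of their components as inactive precursors. In complement, mannose-binding lectins or antibodies start a chain of cleavages that splits C3 and C5 and ends with the assembly of a pore from C6, C8, C9 and others in a target membrane. In coagulation, the contact factors and the vitamin K-dependent factors act one on another until thrombin turns fibrinogen into fibrin, serpins such as antithrombin hold the proteases in check, and plasmin, made from plasminogen, dissolves the clot.

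The genes described here were taken from a list of 36 symbols of this plasma system, by the probe sets annotated to each symbol, with the probe set of highest mean where a gene had more than 1. Of the 36 genes, 32 were measured among 18781 genes on the arrays. C3 and Cpb2 have no probe set under their own name in the annotation used, and the probe sets of Masp2 and Klkb1 are shared with the neighbouring genes Tardbp and Cyp4v3, so no value is given for these 4. Fga is the only member with a second probe set of its own.

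RNA came from liver (LIV), epididymal white adipose tissue (WAT) and skeletal muscle (SM) of male C57Bl/6J mice aged 10 to 12 weeks without any engineered allele named in the labels. Fasted mice had no food for 24 h, starting with the light phase, and fed mice kept free access to chow; all were held on chow and a cycle of 12 h light before. The study used RNA of 5 fasted and 5 fed mice and dissected the 3 tissues from the same animals, so the tissue groups compared share mice; the labels do not tie the arrays of a mouse together beyond a replicate number. Each of the 6 groups has 5 arrays, of which 5 fasted and 4 fed LIV arrays, 5 fasted and 5 fed WAT arrays, and 4 fasted and 5 fed SM arrays entered the fit. Fed LIV 4 and fasted SM 5 were left out, since they correlated least with the other arrays of their groups; on fasted SM 5 the mean of 8 lymphocyte genes was 8.28, against 4.03 to 4.30 on the other SM arrays. Values are log2 signals of a probe set, in which 1 unit is a doubling; they compare the same gene between arrays and not 1 gene with another. The tissues matched their labels: 9 hepatocyte genes averaged 12.49 to 12.61 on fasted and 12.54 to 12.58 on fed LIV arrays, 10 adipocyte genes averaged 11.32 to 11.66 on fasted and 11.74 to 11.94 on fed WAT arrays, and 12 muscle fibre genes averaged 12.48 to 12.58 on fasted and 12.54 to 12.59 on fed SM arrays. In whole tissue, fewer cells of a type and less RNA per cell cannot be told apart.

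In fed mice nearly all of the genes had their highest level in the liver. Of the 32 members, 31 were higher in fed LIV than in fed WAT and 32 were higher in fed LIV than in fed SM (limma, adjusted p under 0.05 and at least 1.3-fold), where 18.7% and 21.8% of all genes were. The median difference over the members was 7.03 for LIV minus WAT and 7.01 for LIV minus SM on the log2 scale, against 0.00 and -0.05 over all genes. Fgb, the beta chain of fibrinogen, stood at 12.47 ± 0.03 in fed LIV (SD, n = 4), against 3.42 ± 0.08 in fed WAT and 3.72 ± 0.22 in fed SM (n = 5 each). F2, which encodes prothrombin, had 11.82 ± 0.08 in fed LIV, against 3.49 ± 0.12 in fed WAT and 3.77 ± 0.06 in fed SM. A member is called dim where both diet means lie below the median of all probe sets of the tissue, which was 4.96 in LIV, 5.10 in WAT and 4.99 in SM. No member was dim in LIV, 24 were dim in WAT and 26 in SM.

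**Figure D1:**
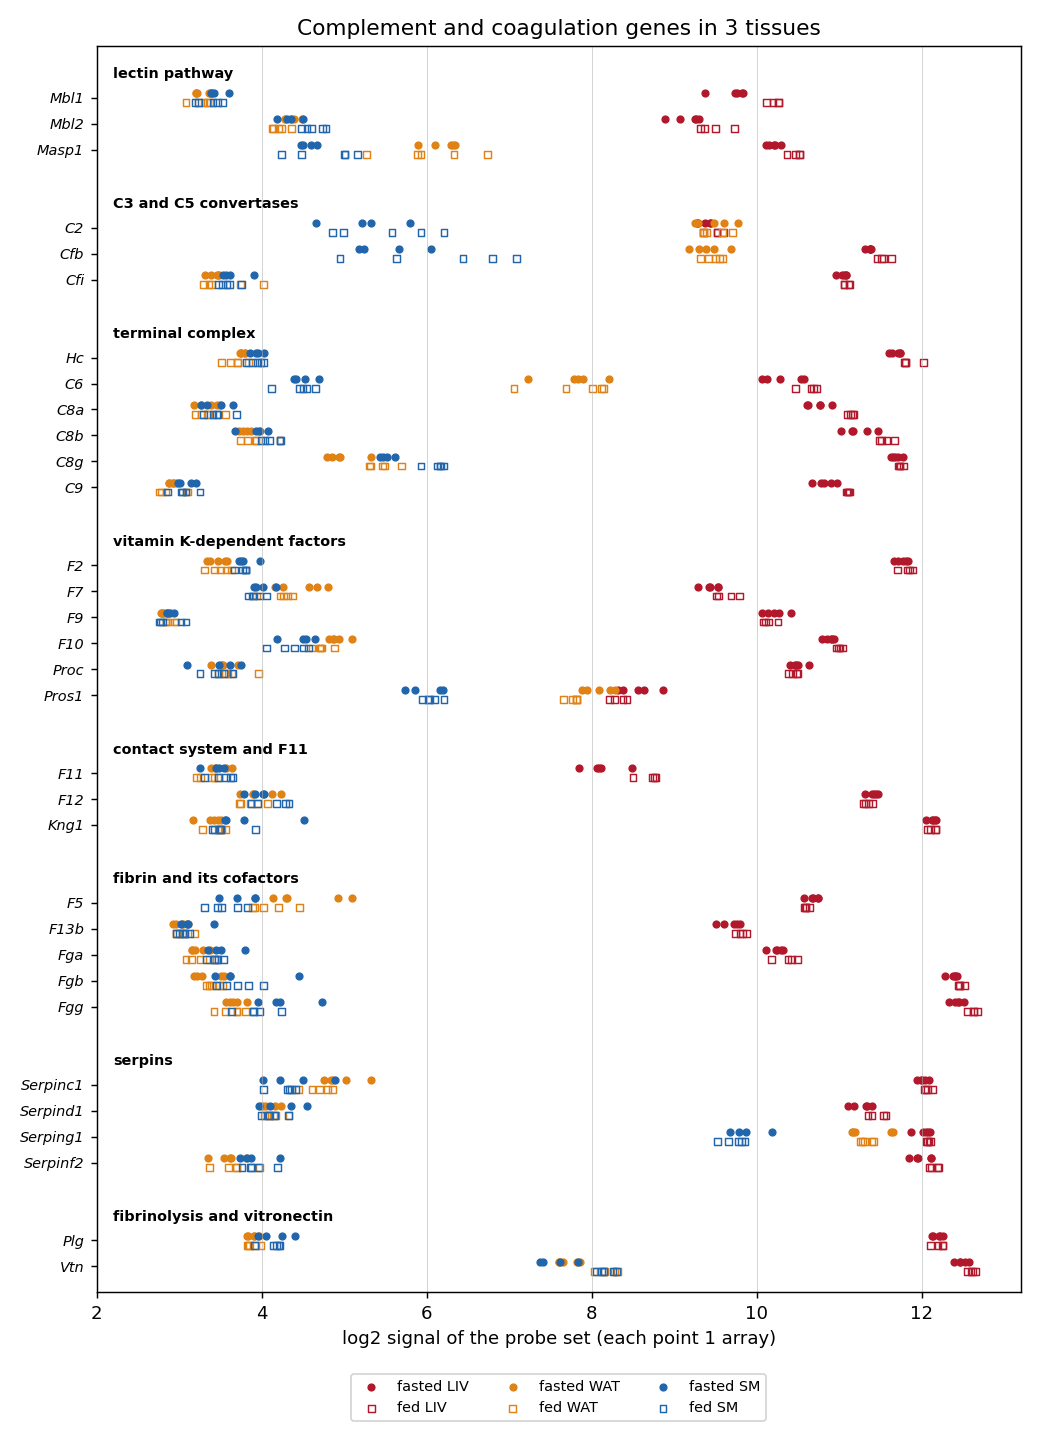
Log2 signal (x axis) of each of the 32 genes (rows, by role) on the arrays of the fit, 1 point an array; filled circles are fasted and open squares fed mice, with LIV in red, WAT in orange and SM in blue. The LIV points lie far to the right for most genes, and C2, Pros1 and Serping1 are the genes whose WAT points come closest to their LIV points.

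A minority was well expressed outside the liver. C2, a protease of the classical and lectin pathway, was at 9.50 ± 0.10 in fed LIV and 9.48 ± 0.16 in fed WAT, a difference of 0.02 (SE 0.20, adjusted p = 0.944), against 5.51 ± 0.58 in fed SM. Serping1, the inhibitor of C1 and of plasma kallikrein, had 12.08 ± 0.02 in fed LIV, 11.33 ± 0.07 in fed WAT and 9.73 ± 0.13 in fed SM. Pros1, which encodes the anticoagulant cofactor protein S, had 8.33 ± 0.09 in fed LIV, 7.78 ± 0.07 in fed WAT and 6.06 ± 0.10 in fed SM. Each of these genes lay above the median probe set in all 3 tissues. Fat and muscle differed for 10 members (31.2%), where 47.2% of all genes differed. Of these members 8 were higher in fed WAT than in fed SM, where 27.1% of all genes were, and 2 were lower, where 20.1% of all genes were. Those higher in WAT were C2 (by 3.97), C6 of the membrane pore (3.35), Cfb, the protease of the alternative pathway (3.29), Pros1 (1.72), Serping1 (1.60), Masp1 (1.26), F5 and Serpinc1, and C8g (-0.66) and Mbl2 were lower in fed WAT than in fed SM. F5, Serpinc1 and Mbl2 were dim in both tissues, so their differences are between signals near background. Vtn, vitronectin, was at 8.18 ± 0.11 in fed WAT and 8.18 ± 0.10 in fed SM, against 12.61 ± 0.04 in fed LIV. C2 and Cfb are neighbouring genes in RefSeq, and both stand among the members with a level in fat.

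After 24 h without food, most of the genes changed little in the liver, and those that moved fell. F11, Mbl1 and C8a fell in fasted LIV at 1.49-fold, 1.42-fold and 1.33-fold lower, while 0 members rose, and 29 did not pass the test of an adjusted p under 0.05 with at least 1.3-fold. Over all genes 4.01% fell and 3.54% rose by this rule, and the members that fell are 9.38% of the 32. No member was dim in LIV, whereas all genes include dim ones. Shares among genes of a like level were not taken, so the shares given here are not between like sets. The median change over the members was -0.13 on the log2 scale, with a range of -0.57 to 0.23, against 0.03 over all genes, and 27 members had a change below 0. On 12 of the 32 members (37.5%) every fasted LIV array was below every fed LIV array of the fit, where 7.41% of all genes had this pattern, and on 0 members was it the other way round. These 12 were Mbl1, Mbl2, Masp1, Cfb, Hc, C8a, C8b, C9, F10, F11, Fgb and Fgg. Fed LIV 4, left out of the fit, read 10.92 for C9 and 10.92 for F10, under the highest fasted values of 10.98 and 10.94. For C8b it read 11.47, as did the highest fasted array. With fed LIV 4 included the count is therefore lower than 12. Of the 9 hepatocyte marker genes 0 were called in LIV, and the ranges of their mean in fasted and fed LIV overlapped. Other cell type markers did fall in the same arrays: 6 of 11 macrophage and Kupffer cell genes, with list means of 6.18 to 6.62 in fasted and 6.62 to 7.03 in fed LIV and a median change of -0.52, and 2 of 6 stellate cell genes, with list means of 7.83 to 8.17 in fasted and 8.07 to 8.46 in fed LIV. Their part in the falls of the members was not tested.

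**Figure D2:**
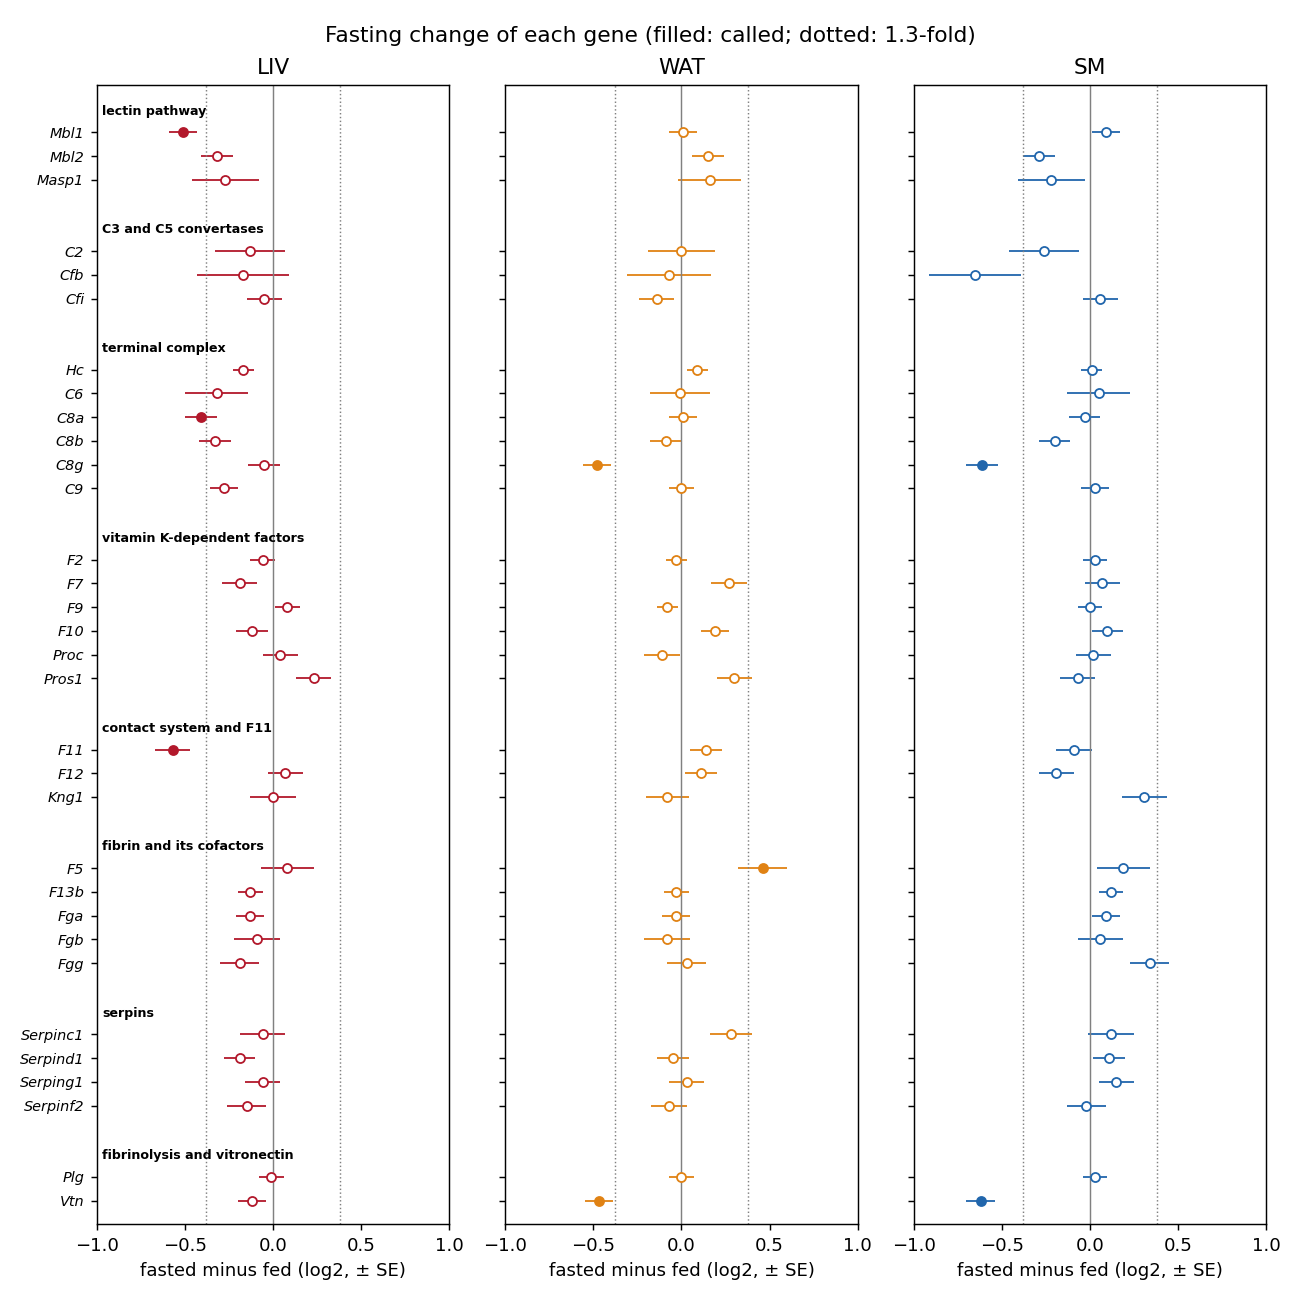
Fasted minus fed difference in log2 signal (x axis, points with SE) of each gene (rows, by role) in LIV, WAT and SM; filled points are called and dotted lines mark 1.3-fold. In LIV 27 of 32 points lie left of 0 and 3 are called, whereas the WAT and SM points scatter around 0 with C8g and Vtn far to the left in both. The SM point farthest to the left is that of Cfb, at -0.65, which is not called.

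The largest fall was that of F11, the coagulation factor that the contact system or thrombin activates. F11 read 8.49, 7.85, 8.09, 8.11 and 8.06 on the fasted LIV arrays, against 8.78, 8.74, 8.50 and 8.76 on the fed ones. The lowest fed value and the highest fasted value differ by only 0.01, yet the groups did not overlap. The change was -0.57 (SE 0.10, limma, adjusted p = 0.000122). F12 and Kng1, the other measured genes of the contact system, gave changes of 0.07 (adjusted p = 0.74) and 0.00 (adjusted p = 1.0), and Kng1 read 12.13, 12.06, 12.14, 12.18 and 12.16 in fasted LIV, against 12.11, 12.17, 12.07 and 12.17 in fed LIV. F11 was the only 1 of these 3 measured genes that fell. Its gene lies beside Klkb1 in RefSeq, which has no value here.

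Mbl1 encodes mannose-binding lectin A, a plasma lectin that binds microbial sugars and starts the lectin pathway. Mbl1 read 9.82, 9.76, 9.84, 9.38 and 9.74 in fasted LIV, against 10.20, 10.12, 10.27 and 10.27 in fed LIV, a change of -0.51 (SE 0.08, adjusted p = 9.98e-05). The fasted values lay below all fed values, with 1 fasted array lower than the rest. Its relative Mbl2, mannose-binding lectin C, read 9.07, 8.89, 9.27, 9.30 and 9.25 in fasted LIV, against 9.37, 9.32, 9.73 and 9.50 in fed LIV. For Mbl2 the change of -0.32 had an adjusted p of 0.0149 but stayed under 1.3-fold, and with all 30 arrays it passed both (-0.41, adjusted p = 0.00384). Masp1, a protease bound to these lectins, had a change of -0.27 (adjusted p = 0.403).

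C8a belongs to the terminal complex, in which C8a, C8b and C8g form complement component 8, the part of the pore that enters the membrane. C8a read 10.92, 10.61, 10.77, 10.77 and 10.62 in fasted LIV, against 11.16, 11.10, 11.14 and 11.18 in fed LIV, a change of -0.41 (SE 0.09, adjusted p = 0.00199). The fold is close to the limit, and C8a was no longer called without fasted LIV 2 or without fasted LIV 5 (change -0.38 in both). C8b, its neighbour on the chromosome, read 11.47, 11.16, 11.17, 11.34 and 11.02 in fasted LIV, against 11.49, 11.58, 11.51 and 11.67 in fed LIV. C9, which polymerises into the pore, read 10.98, 10.67, 10.82, 10.78 and 10.90 in fasted LIV, against 11.13, 11.09, 11.11 and 11.10 in fed LIV. Both had an adjusted p under 0.05 (C8b -0.33, 0.0171; C9 -0.28, 0.0139) with folds of 1.26 and 1.21, and C8b was called without fasted LIV 1 (-0.39). In contrast, C8g, the lipocalin-like chain of the same complex, was at 11.69 ± 0.05 in fasted and 11.74 ± 0.03 in fed LIV. C6 and Hc, which encodes C5, gave -0.32 (adjusted p = 0.28) and -0.17 (adjusted p = 0.0748).

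**Figure D3:**
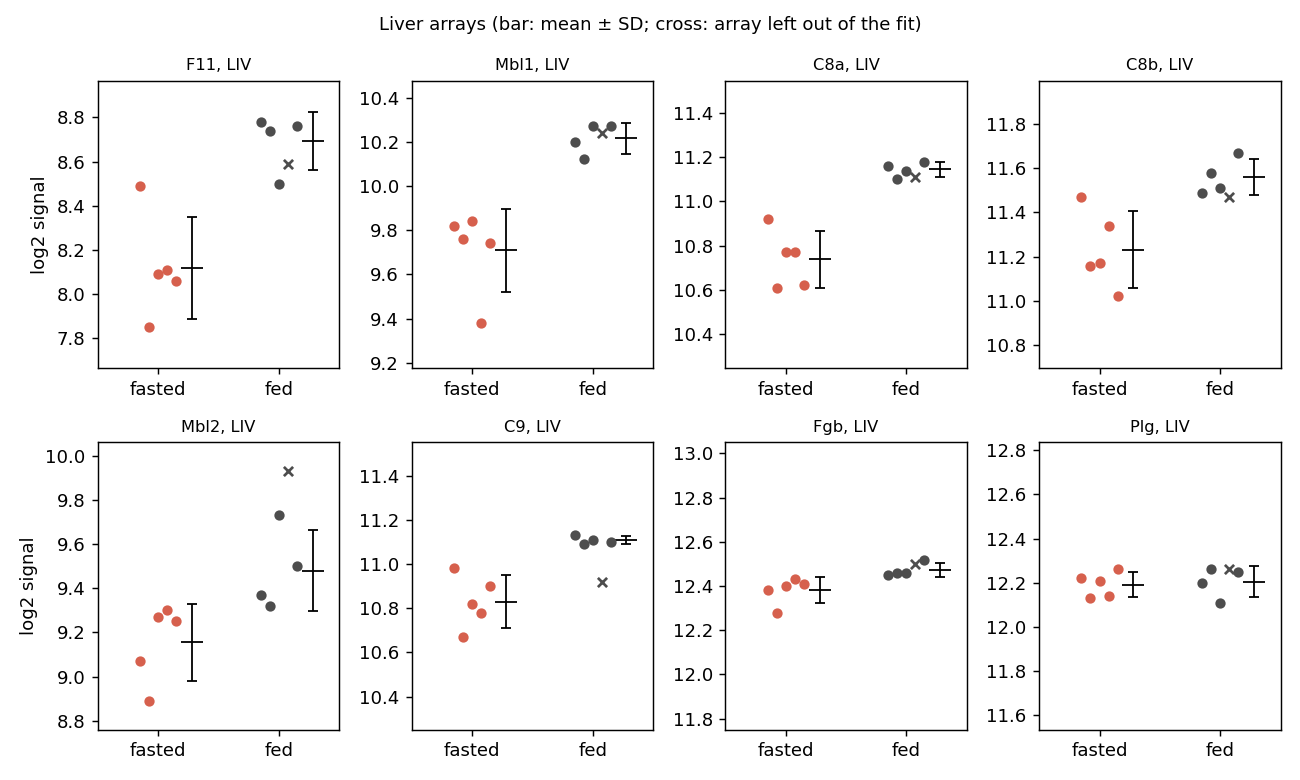
Log2 signal (y axis, each panel spanning 1.3 units) on the LIV arrays of fasted (left) and fed (right) mice for 8 genes; bars are the mean and SD of the arrays in the fit, and the cross is fed LIV 4, left out. F11, Mbl1 and C8a show fasted points below all fed points, while the Plg points of both diets lie between 12.11 and 12.26.

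Without a minimum fold, 6 members fell in fasted LIV at an adjusted p under 0.05 (Mbl1, Mbl2, C8a, C8b, C9 and F11), which is 18.8% of the members against 6.91% of all genes. Here too all genes include dim ones, unlike the members. The fit shares 1 spread per gene across the tissues, so a gene that varies in SM has a wide error in LIV too. Cfb is such a case, at 11.37 ± 0.03 in fasted and 11.54 ± 0.08 in fed LIV with an SE of 0.26. Fitted on the LIV arrays alone and again with no minimum fold, 6 members fell, with Masp1 in the place of Mbl2, against 6.48% of all genes.

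Clotting factors that vitamin K matures were nearly level in fasted LIV. F2 changed by -0.06, F7 by -0.19, F9 by 0.08, F10 by -0.12 and Proc, the anticoagulant protease protein C, by 0.04, with adjusted p between 0.271 and 0.86. Pros1 read 8.56, 8.63, 8.32, 8.87 and 8.38 in fasted LIV, against 8.22, 8.38, 8.28 and 8.43 in fed LIV, a difference of 0.23 with overlapping arrays and an adjusted p of 0.161. It was the highest change of any member in LIV. Of the 3 fibrinogen chains, Fgb read 12.38, 12.28, 12.40, 12.43 and 12.41 in fasted LIV, against 12.45, 12.46, 12.46 and 12.52 in fed LIV. Its change was -0.09 (adjusted p = 0.763), beside -0.13 for Fga (adjusted p = 0.375) and -0.19 for Fgg (adjusted p = 0.304). The second probe set of Fga had a change of -0.15. F5, the cofactor of factor X, and F13b, the carrier of the fibrin-linking enzyme, gave 0.08 and -0.13.

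The inhibitors and the fibrinolytic genes were as level. Serping1 read 12.10, 11.87, 12.02, 12.08 and 12.05 in fasted LIV, against 12.09, 12.06, 12.07 and 12.11 in fed LIV. Serpinc1 (antithrombin), Serpind1 (heparin cofactor II) and Serpinf2 (the plasmin inhibitor) gave -0.06, -0.19 and -0.15, with adjusted p of 0.848, 0.195 and 0.411. Plg, plasminogen, read 12.22, 12.13, 12.21, 12.14 and 12.26 in fasted LIV, against 12.20, 12.26, 12.11 and 12.25 in fed LIV, a change of -0.01. Vtn gave -0.12 in LIV (adjusted p = 0.387). In the convertase group C2, Cfb and Cfi, the protease that inactivates C3b, gave -0.13, -0.17 and -0.05.

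The promoters of the 3 genes that fell in LIV are shown next to those of the fibrinogen genes, which did not pass the test, so that the 2 sets can be read side by side. The second set is not one of unchanged genes, since Fgb and Fgg had every fasted LIV array below every fed one of the fit. A promoter was found for 24 of the 32 measured members in RefSeq (GRCm38.p6), each running over 250 bases before and 50 from a listed start on. For F11 and C8a this start lies inside the span listed for the gene and not at its outer edge. Capitals mark matches, on either strand, to TTCCNGGAA (STAT), TTGCNNAA or its special form TTGCGCAA (C/EBP), GTTAATNAT (HNF1), CAAAGTCCA (HNF4), GTCANTGAC (an inverted repeat bound by nuclear receptors), ACANNNTGT (glucocorticoid receptor) or GGACTTTCC (NF-kB). The F11 promoter lies on the minus strand at chr8:45261982-45262281, that of Mbl1 on the plus strand at chr14:41151206-41151505 and that of C8a on the minus strand at chr4:104876349-104876648. The fibrinogen promoters lie on chromosome 3, Fga on the plus strand at chr3:83025903-83026202, Fgb on the minus strand at chr3:83049814-83050113 and Fgg on the plus strand at chr3:83007474-83007773.
F11: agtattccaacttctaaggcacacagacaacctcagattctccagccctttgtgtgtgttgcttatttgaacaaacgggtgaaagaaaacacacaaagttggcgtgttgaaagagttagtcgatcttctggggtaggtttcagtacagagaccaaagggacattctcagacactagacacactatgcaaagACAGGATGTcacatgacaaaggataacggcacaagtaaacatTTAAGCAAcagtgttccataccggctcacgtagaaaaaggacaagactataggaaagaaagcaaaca
Mbl1: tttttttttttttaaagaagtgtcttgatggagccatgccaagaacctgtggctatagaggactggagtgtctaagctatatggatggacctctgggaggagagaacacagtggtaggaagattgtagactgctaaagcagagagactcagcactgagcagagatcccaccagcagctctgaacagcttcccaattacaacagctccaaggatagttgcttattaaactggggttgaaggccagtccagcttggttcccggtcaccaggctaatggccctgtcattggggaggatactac
C8a: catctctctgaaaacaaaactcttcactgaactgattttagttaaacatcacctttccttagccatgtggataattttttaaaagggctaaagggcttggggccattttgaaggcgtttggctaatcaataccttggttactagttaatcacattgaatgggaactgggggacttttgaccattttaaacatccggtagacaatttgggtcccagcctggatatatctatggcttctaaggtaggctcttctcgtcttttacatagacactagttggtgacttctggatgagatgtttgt
Fga: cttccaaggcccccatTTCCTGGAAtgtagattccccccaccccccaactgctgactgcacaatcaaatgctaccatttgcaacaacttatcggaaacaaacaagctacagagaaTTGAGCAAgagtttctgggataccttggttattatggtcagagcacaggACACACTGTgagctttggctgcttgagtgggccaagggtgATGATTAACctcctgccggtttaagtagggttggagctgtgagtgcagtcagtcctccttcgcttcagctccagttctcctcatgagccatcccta
Fgb: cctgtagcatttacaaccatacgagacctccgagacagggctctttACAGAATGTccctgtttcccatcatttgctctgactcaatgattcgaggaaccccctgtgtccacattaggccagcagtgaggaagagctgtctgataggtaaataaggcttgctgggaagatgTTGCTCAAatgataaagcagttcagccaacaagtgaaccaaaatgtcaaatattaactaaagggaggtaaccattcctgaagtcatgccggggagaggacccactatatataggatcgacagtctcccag
Fgg: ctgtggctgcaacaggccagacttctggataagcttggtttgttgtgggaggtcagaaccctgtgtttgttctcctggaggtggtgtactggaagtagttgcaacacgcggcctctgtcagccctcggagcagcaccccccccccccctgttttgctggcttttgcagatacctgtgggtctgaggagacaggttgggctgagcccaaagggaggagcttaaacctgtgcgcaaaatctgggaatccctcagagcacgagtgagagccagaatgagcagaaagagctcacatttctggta

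Both sets hold promoters with matches and promoters without. The F11 window holds a C/EBP match and a glucocorticoid receptor match, and those of Mbl1 and C8a hold none of the motifs. The Fga window holds a STAT, a C/EBP, an HNF1 and a glucocorticoid receptor match, Fgb holds a C/EBP and a glucocorticoid receptor match, and Fgg holds none. Over all members with a promoter, the C/EBP letters TTGCNNAA were in 6 of 24 (25.0%), against 12.2% of 27025 genes, ACANNNTGT in 5 (20.8%, against 7.90%), GTTAATNAT in 3 (12.5%, against 0.94%) and TTCCNGGAA in 2 (8.33%, against 1.35%). TTGCGCAA, CAAAGTCCA, GTCANTGAC and GGACTTTCC were in 0 of the 24, against 0.207%, 0.555%, 0.463% and 0.40% of all genes.

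In white fat and muscle other members were called than in the liver. In fasted WAT 1 member rose and 2 fell by the same rule, where 7.99% of all genes rose and 7.75% fell. In fasted SM 0 rose and 2 fell, where 7.8% of all genes rose and 5.78% fell. Both directions together, 9.38% of the members were called in WAT and 6.25% in SM, against 15.7% and 13.6% of all genes. The members were thus called no more often than all genes in these tissues. Vtn and C8g fell in both tissues. The median change over the members was 0.00 in WAT and 0.03 in SM, and 24 and 26 of them were dim there.

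Vtn, which binds matrix, cells and the plasminogen activator inhibitor and restrains the membrane pore, read 7.86, 7.61, 7.61, 7.65 and 7.82 in fasted WAT, against 8.16, 8.14, 8.28, 8.31 and 8.03 in fed WAT. In SM it read 7.83, 7.62, 7.41 and 7.37 in fasted mice, against 8.06, 8.30, 8.15, 8.26 and 8.12 in fed mice. The groups did not overlap in either tissue. The changes were -0.47 in WAT (SE 0.08, limma, adjusted p = 2.02e-05) and -0.62 in SM (SE 0.08, adjusted p = 1.11e-06), which is 1.39-fold and 1.54-fold lower. The fasting change in LIV was higher than that in SM by 0.50 (adjusted p = 0.00224), where 15.3% of all genes differed between these tissues, and higher than that in WAT by 0.35 (adjusted p = 0.0244), under 1.3-fold. Fibroblast genes fell in SM as well, 4 of 9 being called, and the list averaged 8.30 to 8.79 on fasted and 8.66 to 9.00 on fed SM arrays. In WAT 1 of the 9 rose and 2 fell, with list means of 9.26 to 9.62 in fasted and 9.48 to 9.64 in fed WAT. The part of these cells in the fall of Vtn was not tested. C8g, which also fell in WAT and SM, has no promoter shown here. The Vtn promoter is shown as that of a member that fell in both tissues outside the liver. It lies on the plus strand at chr11:78498870-78499169 in GRCm38.p6 and has no match to the motifs named above.
Vtn: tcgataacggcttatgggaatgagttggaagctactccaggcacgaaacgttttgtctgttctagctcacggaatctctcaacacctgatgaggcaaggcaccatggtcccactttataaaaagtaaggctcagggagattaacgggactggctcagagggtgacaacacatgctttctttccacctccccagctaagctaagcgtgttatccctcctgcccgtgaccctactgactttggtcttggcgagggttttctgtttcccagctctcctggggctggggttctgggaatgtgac

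C8g read 4.79, 4.85, 5.33, 4.94 and 4.95 in fasted WAT, against 5.32, 5.46, 5.69, 5.49 and 5.31 in fed WAT. In SM it read 5.52, 5.47, 5.61 and 5.43 in fasted mice, against 6.20, 6.13, 6.16, 6.17 and 5.93 in fed mice. One fasted WAT array reached into the fed range, and the SM groups did not overlap. The fasted WAT mean of 4.97 lay under the median of all WAT probe sets, 5.10. The fed WAT mean was 5.45, so the WAT values of C8g are near background. The changes were -0.48 in WAT (SE 0.08, adjusted p = 3.78e-05) and -0.61 in SM (SE 0.09, adjusted p = 3.93e-06). Both differ from the change in LIV, by 0.43 (LIV minus WAT, adjusted p = 0.00957) and 0.56 (LIV minus SM, adjusted p = 0.00141). In RefSeq C8g overlaps Fbxw5, a gene of a ubiquitin ligase subunit. Fbxw5 was at 9.60 ± 0.06 in fasted and 9.83 ± 0.04 in fed WAT (change -0.23, adjusted p = 0.000836), at 10.36 ± 0.05 in fasted and 10.53 ± 0.05 in fed SM (change -0.17, adjusted p = 0.0188), and at 9.72 ± 0.12 in fasted and 9.65 ± 0.05 in fed LIV. Its part in the change of C8g was not tested, and neither was whether the probes tell the 2 genes apart.

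**Figure D4:**
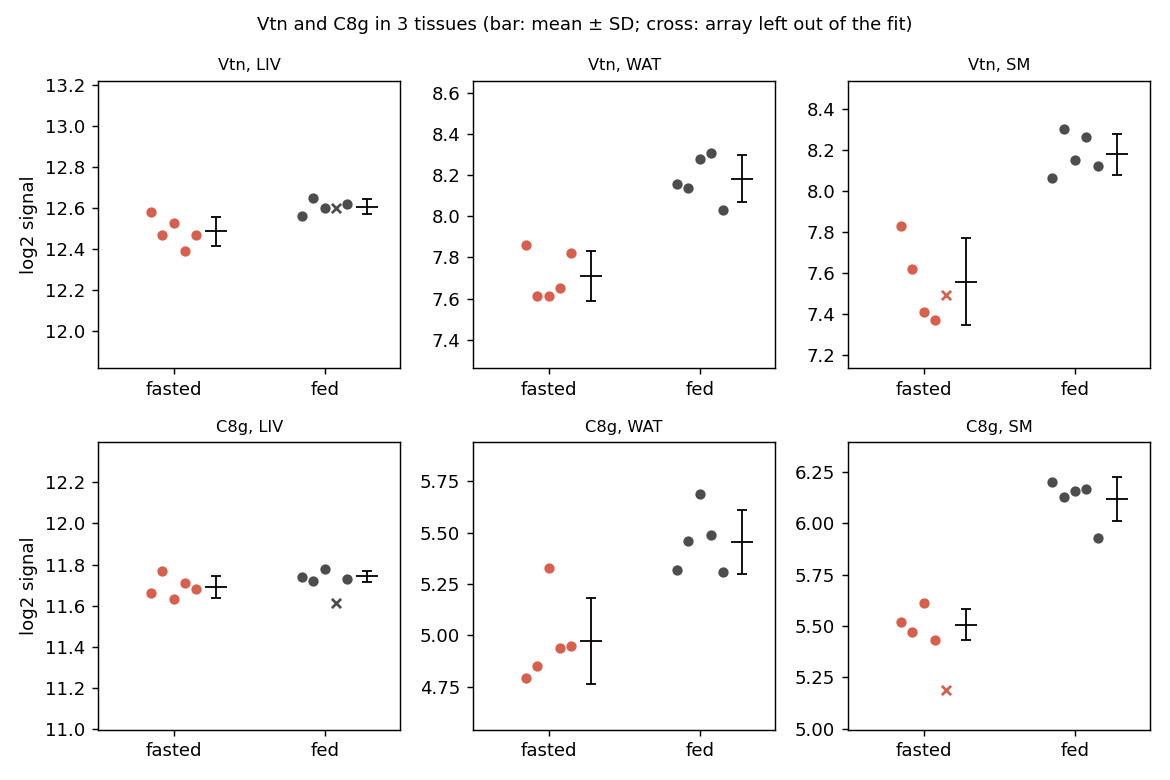
Log2 signal (y axis, each panel spanning 1.4 units) of Vtn and C8g on the arrays of fasted (left) and fed (right) mice in LIV, WAT and SM; bars are the mean and SD of the arrays in the fit and crosses are arrays left out. Fasted points lie below fed points in WAT and SM for Vtn and in SM for C8g, with 1 fasted WAT array of C8g among the fed values, and the LIV panels show little difference.

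F5 was the 1 member called higher in fasted WAT, but at a dim level. It read 4.14, 5.09, 4.31, 4.29 and 4.93 in fasted WAT, against 4.20, 4.46, 3.91, 3.89 and 4.02 in fed WAT, with overlapping groups and a change of 0.46 (SE 0.14, adjusted p = 0.0176). The call was lost without fasted WAT 2 (0.32), without fasted WAT 5 (0.36) and without fed WAT 4 (0.40). Pros1 read 8.22, 8.09, 7.94, 8.28 and 7.88 in fasted WAT, against 7.77, 7.82, 7.82, 7.66 and 7.82 in fed WAT, and its groups did not overlap. The difference of 0.30 had an adjusted p of 0.02 and was under 1.3-fold. The other members with a level in fat stayed close together: C2 was at 9.48 ± 0.22 in fasted and 9.48 ± 0.16 in fed WAT, and Cfb at 9.41 ± 0.19 in fasted and 9.48 ± 0.11 in fed WAT. C6 was at 7.79 ± 0.36 in fasted and 7.80 ± 0.45 in fed WAT, Masp1 at 6.19 ± 0.19 in fasted and 6.03 ± 0.55 in fed WAT, and Serping1 at 11.36 ± 0.26 in fasted and 11.33 ± 0.07 in fed WAT.

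C2 and Cfb varied widely between SM arrays. Cfb read 6.05, 5.24, 5.67 and 5.18 in fasted SM, against 7.09, 6.44, 6.80, 4.95 and 5.63 in fed SM, a change of -0.65 (SE 0.26) that did not pass the test (adjusted p = 0.0729). It passed without fasted SM 1 (-0.82), without fed SM 4 (-0.96) or without fed SM 5 (-0.79). C2 read 5.80, 5.21, 5.33 and 4.66 in fasted SM, against 6.21, 5.58, 5.93, 4.86 and 4.99 in fed SM. The mean of 10 adipocyte genes was 8.98, 8.66, 8.71 and 8.23 on the same fasted SM arrays, against 9.96, 9.35, 9.72, 8.16 and 8.58 on the fed ones. The arrays with the highest adipocyte mean, fed SM 1, 3 and 2, were also the highest 3 for Cfb, and fed SM 4 was the lowest of the 9 for both. Fasted SM 5, left out of the fit, read 7.75 for Cfb and 6.15 for C2 with an adipocyte mean of 9.13, but on this array the lymphocyte mean of 8.28 and a macrophage mean of 6.78, against 5.62 to 6.06 on the other SM arrays, stood apart as well. These points share the array and its normalization, and the part of fat cells or immune cells in the SM values was not tested.

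**Figure D5:**
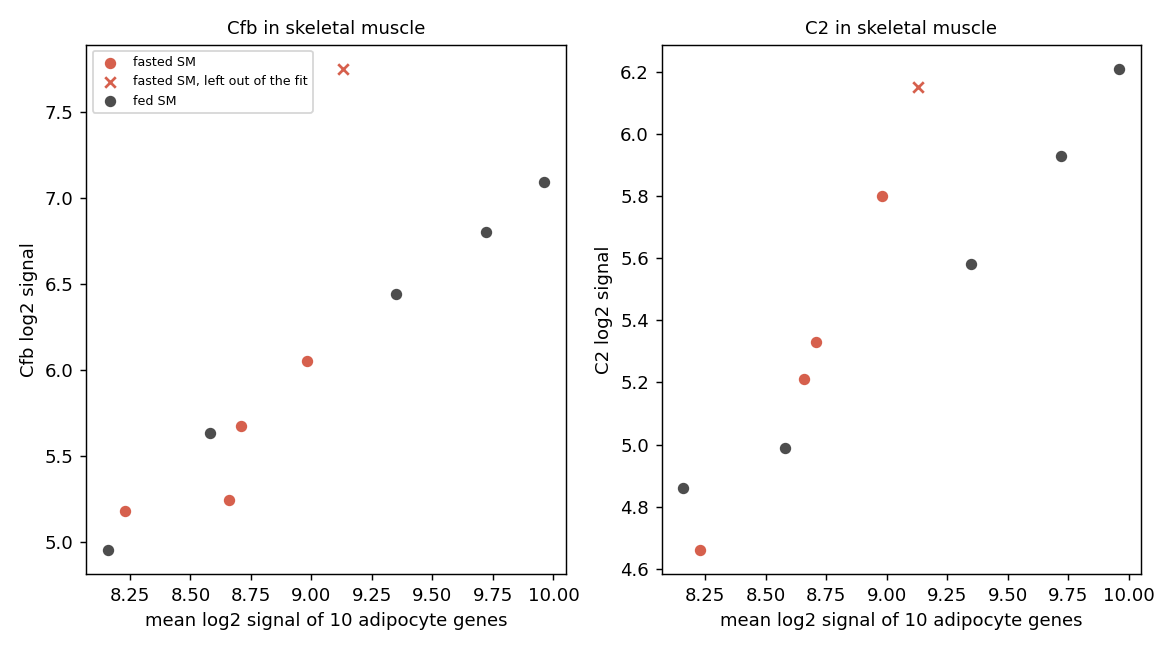
Log2 signal of Cfb and of C2 in SM (y axes) against the mean log2 signal of 10 adipocyte genes on the same array (x axes), 1 point an array; red is fasted, dark grey fed, and the cross is fasted SM 5, left out of the fit. Both genes are high where the adipocyte mean is high, at 9.35 and above in fed SM 1, 2 and 3, and low where it is low.

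The fasting change was also set between tissues. Between LIV and WAT 6 members (18.8%) differed in their fasting change, where 16.1% of all genes did. Mbl1 (-0.52), Mbl2 (-0.47), C8a (-0.42), F7 (-0.46) and F11 (-0.72) were lower in LIV, and C8g was higher. Between LIV and SM 6 members (18.8%) differed, where 15.3% of all genes did. Mbl1 (-0.60), C8a (-0.38), F11 (-0.48) and Fgg (-0.53) were lower in LIV, and C8g and Vtn were higher. Both member shares are close to the share over all genes. Between WAT and SM only Mbl2 of the members differed (0.44, adjusted p = 0.0126), where 15.1% of all genes did; Pros1 joined it without fasted SM 1 (0.44), fasted SM 3 (0.43) or fasted WAT 5 (0.42), and Cfb without fed SM 4 (0.89). Mbl1, Mbl2, C8a, F7, F11 and Fgg are dim in WAT and SM, so their differences from LIV set a liver change beside a signal near background, and the difference of Mbl2 between WAT and SM is one between signals near background on both sides. The C8a difference between LIV and SM rests on a narrow margin, with -0.36 and no call with all 30 arrays, -0.38 and no call after cyclic loess, and -0.38 to -0.31 and no call without fasted LIV 2 or 5, fed LIV 1, 3 or 5, fasted SM 2 or 4, or fed SM 1 or 2. That of Fgg was lost without fasted SM 4 (-0.38), with fasted SM 1 left out in place of fasted SM 5 (-0.43, adjusted p = 0.105) and with all 30 arrays (-0.43, adjusted p = 0.073). That of F7 was lost without fasted LIV 2, fed LIV 2, fasted WAT 1 or 4 or fed WAT 2 (-0.42 to -0.38), and that of C8g between LIV and WAT was lost without fed WAT 3 (0.37). Fgg was at 4.27 ± 0.33 in fasted and 3.93 ± 0.22 in fed SM. Fasted SM 4 had the highest mean of the 9 hepatocyte genes among the SM arrays, at 5.96. The other fasted SM arrays of the fit had 5.14 to 5.39 and the fed SM arrays 4.76 to 5.84. The part of this hepatocyte signal in the SM values of Fgg and other liver genes was not tested.

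Further genes of the 2 cascades and of their control were read from lists. Over all genes 3.54% rose and 4.01% fell in fasted LIV, 7.99% rose and 7.75% fell in fasted WAT, and 7.8% rose and 5.78% fell in fasted SM. The counts of every list, here and below, stand beside these shares, and no list was tested against them. Of 21 measured other complement genes, 0 rose and 3 fell in fasted LIV: C1qb, a chain of C1q made by macrophages (-0.60), C4bp, the C4b-binding inhibitor (-0.38), and Colec11, a soluble lectin (-0.39). Their median change was -0.16, against 0.03 over all genes. In fasted WAT 2 of the 21 rose and 2 fell, and in fasted SM none was called. C1qb moved with the Kupffer cell and macrophage genes given above, whose part in its fall was not tested, and Colec11 is itself on the stellate cell list. Of 27 other coagulation and fibrinolysis genes, 0 rose and 4 fell in fasted LIV, among them Tfpi2, an inhibitor related to the tissue factor pathway inhibitor (-0.86), F3, tissue factor (-0.72), and Anxa2, a plasminogen-binding annexin (-0.68), with a median of -0.10 over the list. In fasted WAT 1 of these 27 rose and 5 fell, with a median of -0.07 against 0.01 over all genes. Thbd, the endothelial thrombin receptor thrombomodulin that turns thrombin on protein C, had 9.46 in fasted and 10.60 in fed WAT (-1.14, adjusted p = 2.03e-07), and Anxa2 had 10.08 in fasted and 11.12 in fed WAT (-1.05, adjusted p = 1.81e-05). In fasted SM Thbd and Tfpi, the inhibitor of the tissue factor pathway, fell by 0.50 and 0.41, Lman1, a carrier of factors V and VIII out of the endoplasmic reticulum, fell by 0.51, and Procr, the receptor of protein C, rose by 0.45.

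In the vitamin K cycle, Ggcx, the carboxylase that matures prothrombin and its relatives, fell in fasted LIV (-0.42, adjusted p = 0.00316) and in fasted WAT (-0.51, adjusted p = 7.49e-05), and Vkorc1l1, a vitamin K epoxide reductase, rose in fasted LIV (0.38, adjusted p = 0.000485). Prrg4, which was put on the list read for this cycle, also rose in LIV (0.47). Of the 6 measured genes of that list 2 rose and 1 fell there, with a median of 0.08. Of 18 acute phase proteins, plasma proteins that the liver raises or lowers in inflammation, 1 rose and 3 fell in fasted LIV: Lbp, which binds bacterial lipopolysaccharide, rose by 0.59 (adjusted p = 0.039), and Saa2 (-0.91), Apcs (-0.64) and Saa4 (-0.49) fell, with a median of 0.01. Lbp was instead lower in fasted WAT, at 9.49, against 10.99 in fed WAT (-1.50, adjusted p = 3.09e-07).

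Of 17 measured regulators that act in hepatocytes or in inflammation, 5 rose and 2 fell in fasted LIV, with a median of 0.00. The transcription factors Cebpd and Cebpb, which bind C/EBP sites, rose by 1.19 and 0.64, and Il6ra and Il1r1, the receptors of interleukins 6 and 1, rose by 1.11 and 0.94. Onecut1, a hepatocyte transcription factor, was at 7.16 in fasted and 8.98 in fed LIV (-1.83, adjusted p = 1.76e-05). In fasted SM 5 regulators rose and 0 fell, led by Cebpd (3.09) and Il6ra (2.16), and in fasted WAT 5 rose and 2 fell, led by Cebpd (1.75) and Il6ra (1.54). The fibrinogen genes, which are classical targets of interleukin 6 in the liver, had changes between -0.19 and -0.09 in the same LIV arrays. For Fgb and Fgg every fasted LIV array lay below every fed LIV array of the fit. A link between the regulators and the fibrinogen genes was not tested.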

How the data were processed

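Total RNA from LIV, WAT and SM was hybridised to Affymetrix Mouse Gene 1.1 ST arrays, 30 in all. The authors normalized the scans by RMA in Partek (background correction, quantile normalization, median polish) and deposited log2 values, used as given for 28815 probe sets. Quantile normalization hides a change in total mRNA. The genome build behind the annotation is not given in the sources used here. In this annotation 21153 probe sets name 1 gene.

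One mean for each of 6 groups was fitted to 28 arrays with limma 3.58.1 (R 4.3.3, moderated variances), with p adjusted by Benjamini and Hochberg over all probe sets. Calls needed an adjusted p under 0.05 and 1.3-fold, the thresholds of the study, which itself used an ANOVA of diet and tissue. The procedure was tested on simulated data. The number of arrays limits the precision.

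Members, lists and tests were chosen with earlier results of these data known. All array values are given for called members whose groups do not overlap and for 1 other member of each role, and up to 4 called genes of each other list are named by size. Array values beyond this, Fbxw5, Cebpb and the Vtn promoter were chosen after their values were seen. Marker lists of endothelial, mesothelial and stellate cells had 0 to 2 genes called per tissue, and that of lymphocytes 0.

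Alternatives were all 30 arrays (also with array weights), fasted SM 1 left out in place of fasted SM 5, as the study's text has it, each tissue alone, no moderation, a replicate block, the mouse as a random block, cyclic loess, no dim probe sets, averaged probe sets, other folds and rates, and each array left out. Each tissue alone with no minimum fold was added after seeing the data. Tables and plots were made in Python 3.11.15 with pandas 2.3.3 and matplotlib 3.10.9.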

Additional observations from a re-analysis of the deposited data

Results flagged for a closer look

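In 4 of the 38 groups whose arrays are given one by one, 1 array stood apart from the rest of its group by Dixon's criterion, which chance meets in about 1 group of 20. Mbl1 read 9.38 in fasted LIV 4, the others of its group lying between 9.74 and 9.84. C8g read 5.33 in fasted WAT 3, against 4.79 to 4.95 in the other fasted WAT arrays, and 5.93 in fed SM 5, against 6.13 to 6.20 in the other fed SM arrays. F11 read 8.50 in fed LIV 3, against 8.74 to 8.78 in the other fed LIV arrays of the fit. The calls of Mbl1, F11 and C8g held without each of these arrays.

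The fasting change differed between tissues in 13 tests on 8 members (limma, adjusted over all probe sets). Of all genes 16.1% differed for LIV minus WAT, 15.3% for LIV minus SM and 15.1% for WAT minus SM. LIV minus WAT gave -0.52 for Mbl1 (adjusted p = 0.002), -0.47 for Mbl2 (0.00732), -0.42 for C8a (0.0152), 0.43 for C8g (0.00957), -0.46 for F7 (0.0249) and -0.72 for F11 (0.000285). LIV minus SM gave -0.60 for Mbl1 (0.000672), -0.38 for C8a (0.0358), 0.56 for C8g (0.00141), -0.48 for F11 (0.0148), -0.53 for Fgg (0.0188) and 0.50 for Vtn (0.00224). WAT minus SM gave 0.44 for Mbl2 (0.0126).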

How the results depend on the processing

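No called member or called difference changed its direction under any alternative. Of the members called in LIV, 3 fell; with no minimum fold 6 did, with a minimum of 1.5-fold 0, with LIV fitted on its own and no minimum fold 6, and without single arrays 2 to 4. In WAT, the 1 rise became 0 with WAT fitted on its own, 3 with no minimum fold, 0 at 1.5-fold, 0 at a false discovery rate of 1% and 0 to 1 without single arrays, and the 2 falls became 0 at 1.5-fold. In SM, the count of rises was 1 with no minimum fold and 0 to 2 without single arrays (Fgg and Kng1). Differences between tissues numbered 1 at 1.5-fold for LIV minus WAT, 1 at 1.5-fold and 3 at a false discovery rate of 1% for LIV minus SM, and 0 at 1.5-fold, 0 at 1% and 1 to 2 without single arrays for WAT minus SM. Fasted and fed arrays came from different mice. Deviations of same-numbered fasted and fed arrays of a tissue had a median r of -0.0035 over 13 pairs, 3 of them over 0.1. Arrays of 1 diet with the same number in other tissues had a median r of 0.0311 over 26 pairs, 6 of them over 0.1. Those with different numbers had -0.0116 over 104 pairs, 5 of them over 0.1. A random block that took diet and replicate number as the mouse changed no call. The correlation fitted for this block was 0.027, so it could change little, and it cannot tell whether the numbers follow the mice. With the replicate number as a block, falls in SM numbered 4 (C2 and Cfb added), WAT minus SM differences 2 (C2 added), LIV minus SM lost C8a and Fgg, and LIV minus WAT lost F7 (-0.48, adjusted p = 0.0545). The cause of these shifts was not tested. The medians over the members stayed between -0.15 and -0.11 in LIV, -0.02 and 0.02 in WAT, and -0.02 and 0.05 in SM, so only that of LIV kept its sign; the SM median was -0.02 without fasted SM 4. Signal limits the members in WAT and SM, where 24 and 26 of the 32 were dim.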
